A study of Mus musculus with 51 samples.

Results

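Distal early H3K4me2/3 sites without H3K4me3 are stretches of the mouse genome that carried a called peak with an antibody against H3K4me2 and H3K4me3 in leptonema or zygonema, the first substages of meiotic prophase, and in none of early pachynema, late pachynema and diplonema. They were chosen by rule. Merging the 5 H3K4me2/3 peak lists, 1 per substage, gave 43759 sites on chromosomes 1 to 19, the only ones used here. Of these, a site was a member if no transcript 5′ end of GENCODE M21 lay within 500 bp of it, if it overlapped no peak of 10 lists made with a second antibody that binds H3K4me3, and if its H3K4me2/3 peaks were confined to leptonema, zygonema or both. The rule kept 8564 sites, 19.6% of the merged sites. The H3K4me3 lists were shorter, with 4883 to 15699 peaks against 17561 to 30943 in the H3K4me2/3 lists. Without H3K4me3 here therefore means without a called peak in those lists, and does not show that the mark was absent. All nuclei came from whole testis of adult male C57Bl/6J mice, wild-type per the labels. The nuclei were fixed in formaldehyde, stained for DNA content, SCP3 and substage markers (STRA8 for leptonema, H1t and SCP1 for the other substages) and sorted by flow cytometry. The H3K4me2/3 libraries came from 1 experiment (experiment 2) with 1 library per substage, the H3K4me3 libraries from experiments 1 and 2 with 2 libraries per substage, and a set of 5 H3K9ac libraries, which the rule did not use, from experiment 1 with 1 library per substage. Each substage therefore has no replicate of the H3K4me2/3 or the H3K9ac measurement, and differences between substages in these marks cannot be told apart from differences between libraries or in the make-up of the sorted populations.

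H3K4me3 is laid down mainly at active promoters by SET-domain methyltransferases, and H3K4me2 is found at promoters and also at distal regulatory elements such as enhancers. At the start of meiotic prophase the germline zinc finger protein PRDM9 binds a sequence motif and places H3K4me3 on nearby nucleosomes at sites away from promoters, which are then used for DNA double-strand breaks (DSB hotspots). H3K9ac is an acetylation mark of open chromatin that is found at active promoters, at enhancers and, in spermatocytes, at PRDM9-bound sites. CpG islands are stretches rich in unmethylated CpG, and CTCF is a zinc finger protein that binds insulators and the anchors of chromatin loops.

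Example windows of the sites are printed first. Most were chosen for the sequence feature they hold, so they do not measure a difference between substages. All are 200 bp windows around the centre of a site, in mm10 coordinates, read from the GRCm38.p6 reference and named by the nearest protein-coding gene. The first set is 4 of the widest members that held the word GGTGCTAC, which was the most centred 8-letter word at distal H3K4me3 sites of zygonema. Each is printed on the strand that carries the word, and capitals mark the word.
Katnal1 in both substages, chr5:148831632-148831831, minus strand: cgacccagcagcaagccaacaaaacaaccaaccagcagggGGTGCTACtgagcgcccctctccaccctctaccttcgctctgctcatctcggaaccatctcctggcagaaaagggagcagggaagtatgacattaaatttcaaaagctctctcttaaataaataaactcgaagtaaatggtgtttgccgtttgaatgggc
Agap1 in leptonema only, chr1:89303058-89303257, minus strand: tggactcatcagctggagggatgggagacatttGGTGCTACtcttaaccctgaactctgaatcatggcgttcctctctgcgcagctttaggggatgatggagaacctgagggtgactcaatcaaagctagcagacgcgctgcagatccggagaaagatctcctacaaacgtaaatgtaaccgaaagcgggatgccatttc
4930474N05Rik in zygonema only, chr14:36284554-36284753, minus strand: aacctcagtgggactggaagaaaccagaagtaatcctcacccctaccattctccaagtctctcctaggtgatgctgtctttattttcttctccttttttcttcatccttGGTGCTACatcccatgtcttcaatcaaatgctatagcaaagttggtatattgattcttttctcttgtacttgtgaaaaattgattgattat
Cdk5rap2 in zygonema only, chr4:70313770-70313969, minus strand: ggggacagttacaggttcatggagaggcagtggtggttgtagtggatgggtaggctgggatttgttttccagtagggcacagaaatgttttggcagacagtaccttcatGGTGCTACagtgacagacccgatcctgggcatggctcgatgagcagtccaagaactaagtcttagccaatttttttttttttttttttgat

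The second set shows CpG content, with every CpG in capitals. The first 2 windows are the widest leptonema-only members whose centre passed the CpG island criteria given below, picked as examples after the values were seen, and the next 2 are the widest member marked in both substages and the widest marked in zygonema only.
Hpse2 in leptonema only, chr19:43385615-43385814, plus strand: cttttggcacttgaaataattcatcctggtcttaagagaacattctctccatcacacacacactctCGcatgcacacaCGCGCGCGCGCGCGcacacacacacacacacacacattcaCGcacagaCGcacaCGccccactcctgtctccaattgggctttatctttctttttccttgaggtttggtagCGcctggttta
Slc35b3 in leptonema only, chr13:38906878-38907077, plus strand: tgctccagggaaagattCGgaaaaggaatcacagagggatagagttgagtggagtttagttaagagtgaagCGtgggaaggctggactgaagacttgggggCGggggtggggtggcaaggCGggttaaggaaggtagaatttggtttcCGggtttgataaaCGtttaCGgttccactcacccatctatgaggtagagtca
Igfbp5 in both substages, chr1:72871580-72871779, plus strand: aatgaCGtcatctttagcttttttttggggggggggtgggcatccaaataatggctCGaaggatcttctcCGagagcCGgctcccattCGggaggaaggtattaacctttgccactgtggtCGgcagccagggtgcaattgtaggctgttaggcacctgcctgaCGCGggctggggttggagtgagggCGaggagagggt
Enpp6 in zygonema only, chr8:46995575-46995774, plus strand: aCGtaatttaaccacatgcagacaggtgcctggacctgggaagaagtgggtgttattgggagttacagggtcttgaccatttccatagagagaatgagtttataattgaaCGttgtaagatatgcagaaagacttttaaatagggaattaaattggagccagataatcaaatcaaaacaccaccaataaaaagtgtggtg

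The last window is the widest member with a match to the CTCF core (CC, any 3 letters, AGG, any 1 letter and GGC), also picked after the values were seen, with the match in capitals.
Ssx2ip in both substages, chr3:146327992-146328191, plus strand: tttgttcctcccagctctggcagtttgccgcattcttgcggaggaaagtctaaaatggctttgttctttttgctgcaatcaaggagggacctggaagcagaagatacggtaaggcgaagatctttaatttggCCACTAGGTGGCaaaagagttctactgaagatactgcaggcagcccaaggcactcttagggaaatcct

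These sites formed 3 stage patterns. A peak in leptonema only was called at 4405 members, a peak in zygonema only at 2216, and a peak in both at 1943, which is 22.7% of the members. The rule fixes these patterns, so they are a description of which library gave the call. The H3K4me2/3 lists held 30943 peaks in leptonema and 29114 in zygonema, against 17561, 19711 and 18191 in early pachynema, late pachynema and diplonema. Members took 6348 peaks (20.5%) of the leptonema list and 4171 (14.3%) of the zygonema list.

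Members were narrow. Their median width was 448 bp (range 155 to 3092 bp), against 833 bp for the 6913 distal early sites with H3K4me3 and 473 bp for the 4821 distal sites marked only in early pachynema or later and without H3K4me3 (distal late sites). Among the patterns, the median was 387 bp for leptonema only, 333 bp for zygonema only and 760 bp for both. The member peaks themselves sat in the narrow part of each list, with 14.6% of those in leptonema and 7.5% of those in zygonema wider than the median of their own list (870 and 836 bp). At the 1943 sites with a peak in both substages, the leptonema peak was the wider one at 1361 (70%), with medians of 626 bp in leptonema and 437 bp in zygonema.

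**Figure D1:**
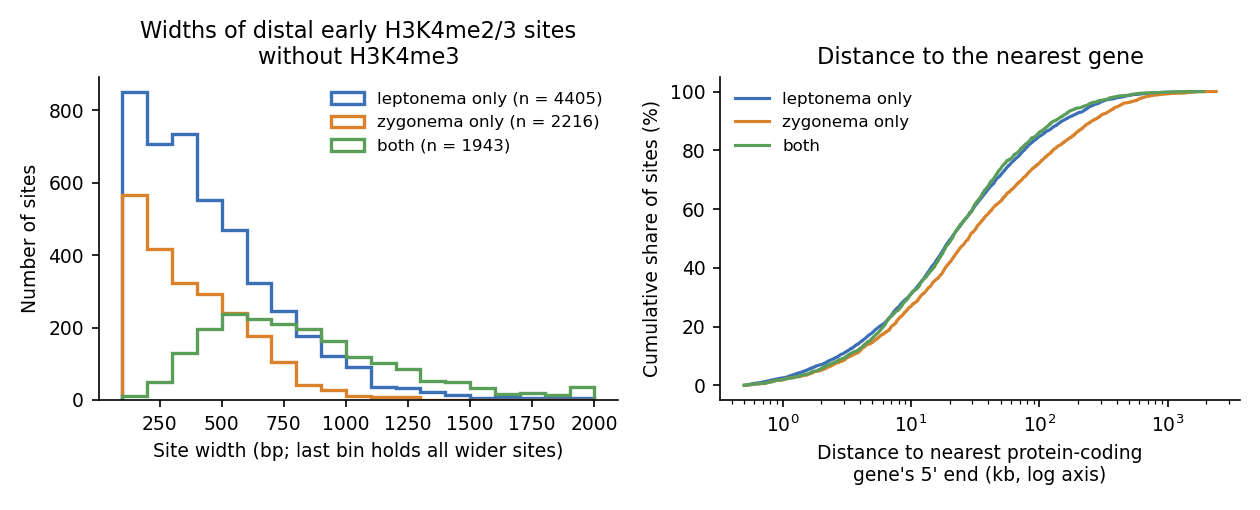
Left, histogram of the width (bp) of the members by stage pattern, in 100 bp bins; right, cumulative share (%) of the members against the distance (kb, log axis) to the nearest 5′ end of a protein-coding gene. The zygonema-only sites are the narrowest, with a median of 333 bp, and lie farthest from genes, with a median of 28 kb against 20.5 kb for leptonema only.

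The widest leptonema-only member lay at chr8:70820055-70822261 (2207 bp), over an exon of Il12rb1, which encodes an interleukin receptor subunit, 6.84 kb from its nearest 5′ end. The next were chr12:54740853-54742863 (2011 bp), intergenic and 17.6 kb from the sorting nexin gene Snx6, and chr19:43384714-43386715 (2002 bp), over an exon of Hpse2, a heparanase-like gene, 1.54 kb from its 5′ end. The widest zygonema-only member lay at chr8:46994978-46996371 (1394 bp) in an intron of Enpp6, which encodes a choline-specific phosphodiesterase. It had an H3K4me3 peak 0.751 kb away. The other two zygonema-only sites of this kind were intergenic, at chr17:65065639-65066914 (1276 bp), 230 kb from 4930583I09Rik, and at chr10:22783830-22785090 (1261 bp), 35.1 kb from Tcf21, a transcription factor gene of mesenchymal cells. Of the sites marked in both substages, the widest was chr1:72870134-72873225 (3092 bp) in an intron of Igfbp5, which encodes a binding protein of insulin-like growth factors, 1.05 kb from its 5′ end and 44.6 kb from any H3K4me3 peak. It was followed by an intergenic site at chr8:106431006-106433679 (2674 bp), 15.6 kb from the zinc finger gene Zfp90, and one at chr1:89939653-89942265 (2613 bp), 8.47 kb from the homeobox gene Gbx2. None of these 9 sites except the one near Zfp90, which had a zygonema peak, overlapped an H3K9ac peak.

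At the 500 bp limit, the members nearest to it lay 501 bp from Col14a1, a collagen gene, 503 bp from Barhl1, a homeobox gene, and 509 bp from the non-coding gene Gm45768. The sites just inside it, which are not members, lay 497 bp from Gm5801, 494 bp from Hpca, a neuronal calcium sensor gene, and 493 bp from 9630013K17Rik. None of the 6 had an H3K9ac peak. The limit on H3K4me3 was closer to many sites. Of the 6913 distal early sites that were left out because of an H3K4me3 peak, 3836 had that peak in 1 library only, and 84 members had an H3K4me3 peak within 100 bp that did not touch them. The zygonema H3K4me3 library of experiment 1 carried the most weight in the selection. Without it the rule kept 11815 sites in place of 8564, while leaving out any other H3K4me3 library kept between 8564 and 8997.

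By place, 4459 members (52.1%) were intergenic, 2573 (30%) lay in introns and 1532 (17.9%) overlapped an exon, coding sequence in 1198 of them, a UTR but no coding sequence in 111 and a non-coding transcript in 223. Over all 25913 distal sites 48.2% were intergenic, 34.7% in introns and 17.1% over an exon. The patterns were placed differently. Exons were overlapped by 19.8% of leptonema-only sites (95% exact binomial interval 18.6 to 21) and 23.2% of sites in both substages (21.4 to 25.2), against 9.52% of zygonema-only sites (8.33 to 10.8). Coding sequence was touched by 15.7% of leptonema-only sites, 19.4% of those in both substages and 5.96% of zygonema-only sites. Introns held 44% of the zygonema-only sites (41.9 to 46), close to the 44.7% of the distal early sites with H3K4me3, and 26% of the leptonema-only sites (24.7 to 27.3). Here and below the intervals cover counting error over sites within these libraries only, and sites are not replicates of a substage.

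**Figure D2:**
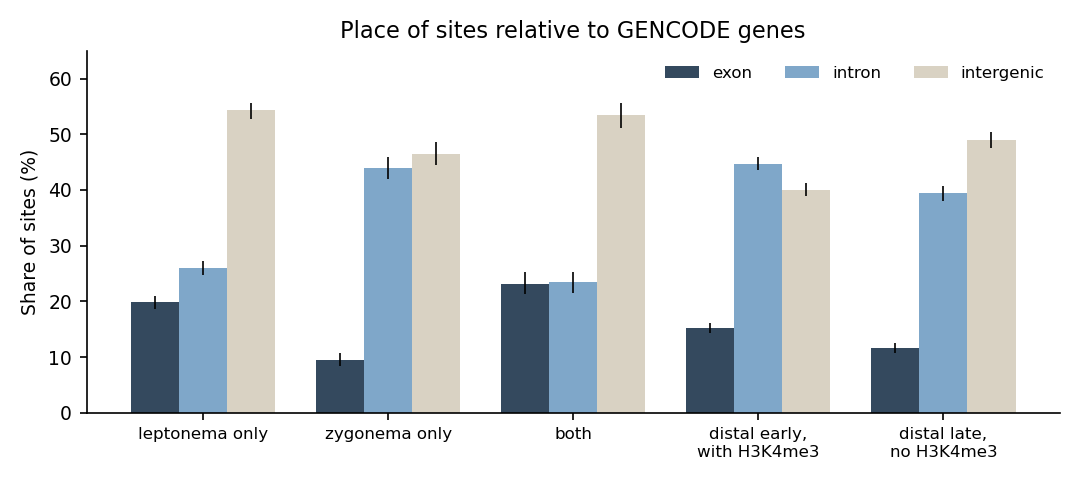
Share (%) of sites that overlap a GENCODE exon, lie in an intron or are intergenic, for the 3 stage patterns and 2 other groups of distal sites; error bars are 95% exact binomial intervals over sites. The zygonema-only sites have the smallest exon share of the 5 groups (9.52%) and an intron share of 44%.

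The median distance from a member to the nearest transcript 5′ end was 11.2 kb, with 907 members (10.6%) within 2 kb and 3984 (46.5%) within 10 kb. All distal sites together gave a median of 11.3 kb. The median distance to the nearest H3K4me3 peak of any library was 22.4 kb, and 1256 members (14.7%) had one within 5 kb. Zygonema-only sites had an H3K4me3 peak within 1 kb at 134 of 2216 (6.05%), against 104 of 4405 (2.36%) leptonema-only sites and 29 of 1943 (1.49%) sites in both. Most members stood alone, since 5909 had neither another member nor any other H3K4me2/3 site within 5 kb, 958 (11.2%) had another member that close and 1912 (22.3%) another H3K4me2/3 site. They were found on all 19 autosomes at 2.65 per Mb on chromosome 6 to 4.77 per Mb on chromosome 11, and made up between 29.1% and 35.6% of the distal sites of each chromosome.

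The members were spread over many genes. The nearest protein-coding gene was 1 of 5261 genes, of the 20807 that the annotation holds on chromosomes 1 to 19. Of these 5261 genes, 3398 had a single member and 170 had 5 or more. Zfhx3, a zinc finger homeobox transcription factor gene, had the most, with 19 members (9 in leptonema only, 5 in zygonema only, 5 in both) from 1.55 to 371 kb away. Adgrl2, a latrophilin adhesion receptor gene, and Zfp217, which encodes a zinc finger corepressor, had 13 each. Those of Adgrl2 lay 93.1 to 920 kb from its 5′ ends, and those of Zfp217 lay 4.17 to 122 kb away. There were 12 each for Camta1, a calmodulin-binding transcription activator gene, Nr2f2, an orphan nuclear receptor gene, and Pmfbp1, which encodes a protein of the sperm head-tail junction. Of the 12 near Pmfbp1, 7 were marked in both substages. The promoters of Pmfbp1 and of Enpp6 had an H3K4me3 peak in none of the 10 libraries. For the other genes named in this paragraph it was found in 2 (Zfhx3) to 10 (Zfp217 and Camta1) libraries. Efna5, an ephrin ligand gene, Enpp6 and Vrk1, a nuclear kinase gene, had 11 each, and Auts2, a gene of neuronal development, had 10. The distal sites of any kind nearest to these 10 genes numbered 14 (Zfp217) to 44 (Zfhx3).

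The promoters of the nearest genes were marked much as those near other distal sites. The nearest gene had an H3K4me3 peak within 500 bp of a 5′ end in at least 1 leptonema or zygonema library and in none of the 6 later ones for 886 members (10.3%, interval 9.71 to 11), against 9.93% of all distal sites and 8.98% of distal late sites. Over all 20807 protein-coding genes this promoter pattern was found at 6.73%. The opposite pattern, H3K4me3 later and not early, was found at the nearest gene of 9.38% of members, and 34.5% had a nearest gene without any H3K4me3 call.

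Genes of the testis cell types and of meiosis were each nearest to few members, at shares close to those over all 25913 distal sites. Spermatogonial genes (11 of 23 with a member) took 25 members, 0.292% of all members against 0.282% of distal sites. Kit, the receptor of differentiating spermatogonia, was nearest to 6 and Foxo1, a transcription factor gene of spermatogonial stem cells, to 5. Id4, an inhibitor of basic helix-loop-helix factors, and Nanos3, which encodes a germ cell RNA-binding protein, were nearest to 3 each. Meiotic prophase genes (8 of 45) took 10 members (0.117% against 0.123%), led by the helicase gene Hfm1 with 3, while Ccnb1ip1, a ubiquitin ligase gene of crossing over, Hormad2, a gene of the unsynapsed chromosome axis, and the transcription factor gene Mybl1 had 1 each. Spermatid genes (7 of 30) took 9 members (0.105% against 0.108%), of which Tnp1, a transition protein gene, had 3 and Acr, Catsper3 and Gsg1 had 1 each. For the enzymes that write or remove H3K4 methylation (5 of 17) there were 6 members (0.0701% against 0.0733%), 2 nearest to the methyltransferase gene Setd7 and 1 each to the demethylase genes Kdm1a and Kdm5b and to Prdm9, whose member lay 10.4 kb away and was marked in leptonema only.

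Genes of somatic cells were also among the nearest genes. Sertoli cell genes (8 of 18) took 15 members (0.175% against 0.158% of distal sites). Of these 15, 11 were marked in leptonema only, against 4405 of all 8564 members. The other lists leaned the same way. The counts were 15 of 25 for spermatogonial, 6 of 10 for meiotic prophase and 6 of 9 for spermatid genes. They were 9 of 13 for other somatic cells, 2 of 3 for Leydig cells and 4 of 6 for H3K4 methylation enzymes. Sox9, the Sertoli cell transcription factor gene, was nearest to 5, and Wt1, Inhbb and Gdnf to 2 each. Genes of other somatic cells (8 of 14) took 13 (0.152% against 0.166%), with 3 each nearest to the endothelial cadherin gene Cdh5 and to Tcf21, 2 to Pdgfra and 1 to Des. Leydig cell genes (2 of 10) took 3 (0.035% against 0.0193%), 2 nearest to Insl3 and 1 to Lhcgr.

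Promoter marks were read against markers of the sorted and of other cells. Sycp3, the axis protein gene of all meiotic cells, had an H3K4me3 peak in 10 of 10 libraries and an H3K4me2/3 peak in all 5 substages. Stra8, the gene used to sort leptonema, had an H3K4me2/3 peak in leptonema and zygonema only. Sycp1, a synaptonemal complex gene, had one in all 5 substages and an H3K4me3 peak in 8 libraries. Hist1h1t, which encodes the H1t used in the sort, had an H3K4me2/3 peak in zygonema and early pachynema and none in late pachynema or diplonema, with an H3K4me3 peak in 2 libraries. All 4 sort markers had an H3K4me3 peak in leptonema, Hist1h1t among them, although it had no H3K4me2/3 peak there. Of 9 spermatogonial markers, 9 carried an H3K4me2/3 peak at the promoter in leptonema and in zygonema, and 5 in each later substage. Sertoli cell markers did so at 4 of 7 genes in leptonema, 2 in zygonema and 1 in each later substage, and markers of other somatic cells at 2 of 6 in leptonema and zygonema and 0 later. Leydig cell markers had such a peak at 1 of 6 genes in leptonema, 0 in the next 3 substages and 1 in diplonema, and spermatid markers at 1 of 5 in late pachynema and 0 elsewhere. The Sertoli genes Amh, Fshr and Dhh had none at any substage. An H3K4me3 peak was called at 5 spermatogonial markers in leptonema, 3 in zygonema and 1 in each later substage. For Sertoli markers it was 3 in leptonema, 1 in zygonema and 0 later, and for other somatic markers 1 in leptonema and 0 later. Leydig markers had 1 in diplonema and 0 elsewhere, and spermatid markers none. The share of all protein-coding promoters with a peak in each substage was not computed, so these counts have no background. The leptonema and zygonema H3K4me2/3 lists are also the longest. The part of such cells in the members was not tested.

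H3K9ac was the one mark with peak lists that the rule did not use, and it was called at 551 of 8564 members (6.43%, interval 5.92 to 6.97) in zygonema. In the other libraries it was called at 9 members in early pachynema (0.105%), 1 in leptonema (0.0117%) and 0 in diplonema or late pachynema (upper bound of each interval 0.0431%). No member had an H3K9ac peak at more than 1 substage, and 8003 had none. The lists behind these shares held 16003 peaks for zygonema, 7744 for early pachynema, 2823 for leptonema, 1727 for late pachynema and 516 for diplonema, so the substage with the highest share was also that with the longest list. Over all 43759 merged H3K4me2/3 sites, promoters included, an H3K9ac peak was called at 33.7% in zygonema and 17.1% in early pachynema. The shares were 6.34% in leptonema, 3.86% in late pachynema and 1.13% in diplonema. Over the 25913 distal sites alone it was called at 23.6% in zygonema and 2.19% in early pachynema. There the shares were 0.305% in leptonema, 0.289% in late pachynema and 0.259% in diplonema. Members lay below both backgrounds in each library. The mean share of members was 3.22% over the 2 early libraries and 0.035% over the 3 later ones. A two-sided exact permutation test over the 5 libraries gave p = 0.4, and the smallest p that this design allows is 0.2.

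Within zygonema the patterns differed. H3K9ac was called at 12% of zygonema-only sites (266 of 2216, interval 10.7 to 13.4) and 9.57% of sites in both substages (186 of 1943, 8.3 to 11). At leptonema-only sites it was called at 2.25% (99 of 4405, 1.83 to 2.73). The leptonema H3K9ac library called few distal sites of any kind (79 of 25913), and 16 of 6913 distal early sites with H3K4me3. Whether leptonema-only sites carried H3K9ac in their own substage therefore cannot be read from these lists. Wider sites have more room to overlap a peak, and the order between the single-substage patterns was found within each width class. For sites up to 300 bp the share was 8.55% in zygonema only and 1.59% in leptonema only, from there up to 600 bp it was 13.4% and 1.89%, and above 600 bp it was 17.9% and 3.78%. The distal late sites had an H3K9ac peak in zygonema at 15 of 4821 (0.311%), and in early pachynema at 47 (0.975%).

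Distal sites that were marked both early and later and had no H3K4me3 had an H3K9ac peak in zygonema at 387 of 2964 (13.1%, 11.9 to 14.3). Outside the 500 bp windows as a whole, 23.6% of H3K4me2/3 sites had an H3K9ac peak in zygonema, and the distal early sites with H3K4me3 had one at 4401 of 6913 (63.7%, 62.5 to 64.8). Where that H3K4me3 peak came from 1 library only the share was 47.4% (1817 of 3836). For most of these 3836 sites it was the zygonema library of experiment 1, without which the rule kept 11815 sites in place of 8564. Sites above 600 bp with H3K4me3 had it at 73%, against 10% of members of that width marked in both substages. The share of members depends on the zygonema H3K4me3 library of experiment 1, the experiment that also gave the H3K9ac libraries. When that library was left out of the rule, the share of members with zygonema H3K9ac was 19.6%. The share at sites with H3K4me3 was not recomputed without that library, so the change in the gap is not known.

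**Figure D3:**
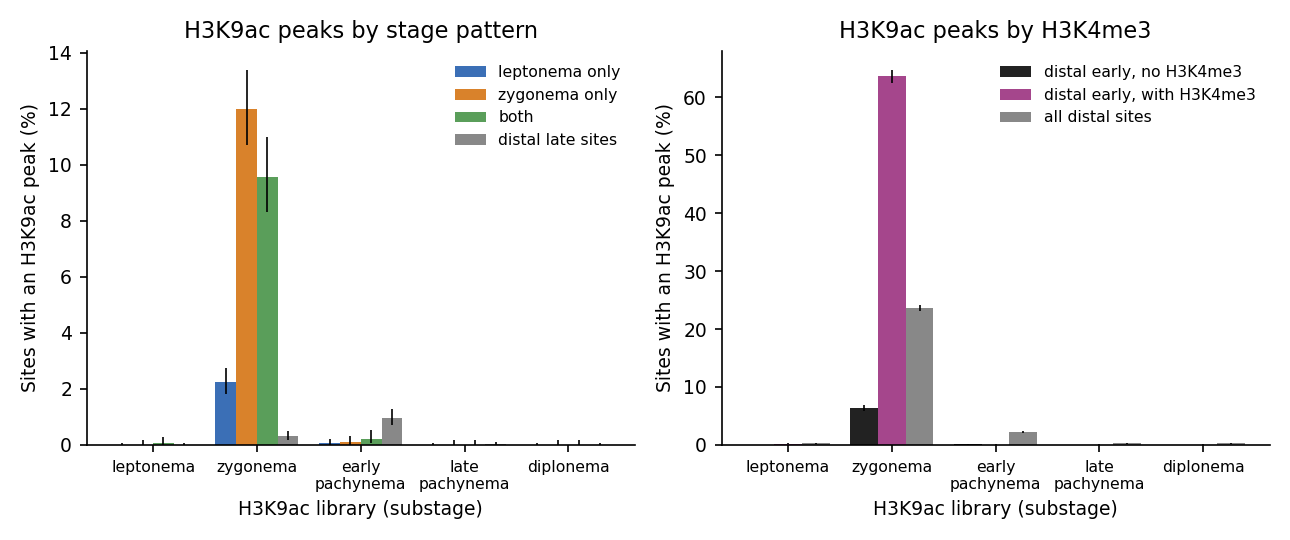
Share (%) of sites that overlap an H3K9ac peak in each of the 5 H3K9ac libraries (1 per substage), by stage pattern on the left and by H3K4me3 on the right, with 95% exact binomial intervals over sites. The zygonema library gives nearly all calls, at 12% of zygonema-only, 9.57% of both and 2.25% of leptonema-only members, and at 63.7% of distal early sites with H3K4me3.

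The widest members with an H3K9ac peak were all marked by H3K4me2/3 in both substages and by H3K9ac in zygonema. They were the site near Zfp90 given above, chr2:130633849-130636401 (2553 bp) over an exon of Lzts3, a leucine zipper gene, and 1.69 kb from its 5′ end, and chr11:88214297-88216771 (2475 bp), intergenic and 9.85 kb from Mrps23, a mitochondrial ribosome gene.

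Members were then searched for the words that are centred at zygonema H3K4me3 sites. The words were taken from other sites, namely 3130 distal sites that the 2 H3K4me3 libraries of zygonema both called and no later H3K4me3 library did, which by rule cannot be members. Of the 8-letter words found within 100 bp of the centre of at least 2% of them, on either strand, those with the highest ratio of centre to flanking 200 bp windows were GGTGCTAC (92 sites against a mean of 10.5), GATGCTAC (121 against 14.2), GCAGCACC (164 against 19.5), GCTGCTAC (104 against 14) and GCAGTAGC (103 against 14.2). These words overlap one another in letters, so they are not separate signals. No factor was read from them.

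At least 1 of the 5 words lay within 100 bp of the centre at 470 members (5.49%, interval 5.02 to 5.99) and in 2.15% of flanking windows 500 to 900 bp away. The zygonema-only sites had a word at 208 of 2216 centres (9.39%, 8.2 to 10.7) and in 1.99% of flanks. The leptonema-only sites had one at 4.04% (3.48 to 4.66) with 2.07% in flanks, and the sites in both at 4.32% (3.46 to 5.32) with 2.55% in flanks. All distal sites together had a word at 6.88% of centres, the distal late sites at 2.53% (flanks 2.36%) and the distal early sites with H3K4me3, which include sites the words came from, at 13.8%. The zygonema-only share was above the leptonema-only share in each width class, at 7.94% against 5.02% up to 300 bp, 10.7% against 3.49% from there up to 600 bp and 10.2% against 3.5% above 600 bp. GGTGCTAC alone was at the centre of 54 members, 30 in zygonema only, 17 in leptonema only and 7 in both, and the windows printed above are 4 of these.

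Zygonema-only sites with a word had H3K9ac in zygonema at 31 of 208 (14.9%, 10.4 to 20.5) and those without one at 235 of 2008 (11.7%, 10.3 to 13.2), so the intervals overlapped. Among leptonema-only sites the share was 2.25% with and without a word.

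CpG content was higher in leptonema-only than in zygonema-only sites, the reverse of the word share. The central 200 bp held 6.52 ± 3.83 CpG (mean ± SD over 4405 sites) in leptonema-only sites and 6.63 ± 4.01 in sites of both substages, against 2.89 ± 2.76 in zygonema-only sites. Flanking windows held 2.76, 3.04 and 2.03. Distal late sites had 3.22 ± 3.02 and distal early sites with H3K4me3 had 2.35 ± 3.04 at the centre. A centre was called island-like where its GC content was over 50% and its CpG count over 0.6 of the count that its C and G content gives. This held for 731 leptonema-only sites (16.6%, 15.5 to 17.7), 338 sites in both (17.4%, 15.7 to 19.2) and 81 zygonema-only sites (3.66%, 2.91 to 4.52), and for 3.84% of distal late sites, 2.94% of distal early sites with H3K4me3 and 1.28% of the flanking windows of the members. Over all members the share was 13.4% (12.7 to 14.2), against 10.8% of all distal sites, whose centres held a mean of 4.63 CpG. It was 21.1% at the 2964 distal sites without H3K4me3 that were marked both early and later. No CpG at all was found at 1.88% of leptonema-only and 17.6% of zygonema-only centres. The Hpse2 and Slc35b3 windows above hold 12 and 7 CpG and the Enpp6 window 2, although the widest leptonema-only sites of all, near Il12rb1 and Snx6, hold only 2 and 0.

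H3K9ac in zygonema was called at 25 of the 1150 island-like members (2.17%, 1.41 to 3.19) and at 7.09% of the other 7414 (6.52 to 7.7). Of these 25 sites, 18 were marked in both substages, where the share was 5.33% of 338 island-like sites (3.19 to 8.29) and 10.5% of the other 1605. It was called at 0 of the 81 island-like zygonema-only sites (upper bound 4.45%) and at 12.5% of the other 2135, and among leptonema-only sites at 0.958% of island-like and 2.5% of other centres (0.386 to 1.96 and 2.02 to 3.06).

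**Figure D4:**
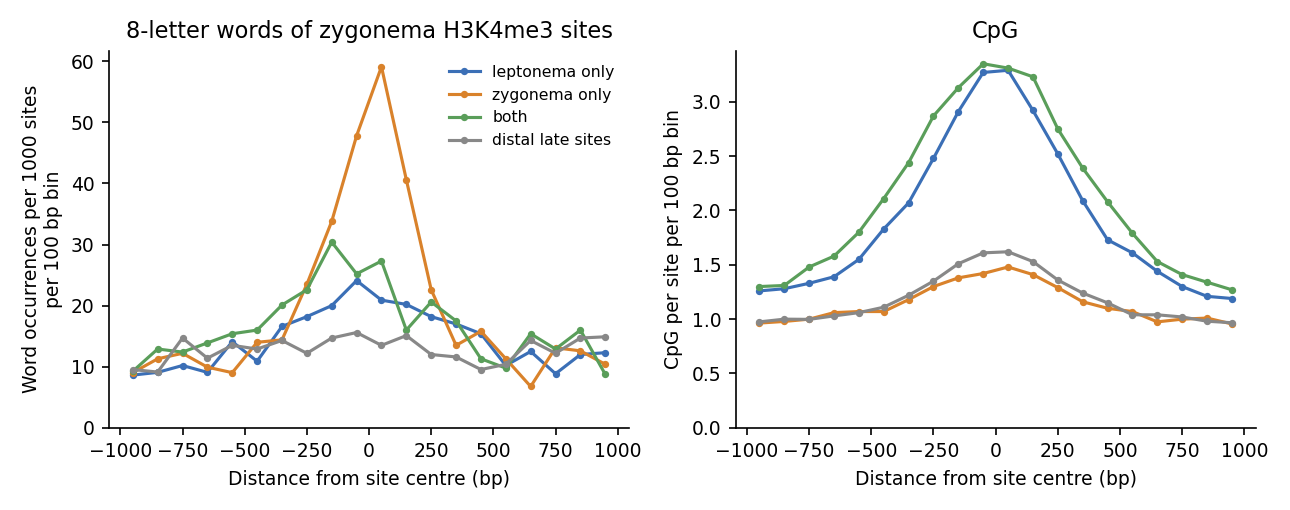
Left, occurrences of the 5 words per 1000 sites in 100 bp bins against distance (bp) from the site centre; right, CpG per site in the same bins, for the 3 stage patterns and the distal late sites. Words peak at the centre of zygonema-only sites, at 59.1 per 1000 sites, and CpG peaks at the centre of leptonema-only sites and sites in both, at 3.29 and 3.35 per bin, while the zygonema-only curve stays at or below 1.48.

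Short motifs of 14 factor families were counted in the same windows, on both strands. The GC box GGGCGG, bound by KLF and SP factors, was at 15.2% of leptonema-only centres (14.2 to 16.3, flanks 4.76%) and 16.1% of those in both (14.5 to 17.8, flanks 5.47%), against 4.56% of zygonema-only centres (3.73 to 5.51, flanks 2.41%) and 9.52% of all distal centres. The CTCF core was at 3.27% of leptonema-only centres (2.76 to 3.84, flanks 1.03%) and 4.01% of those in both (3.19 to 4.99, flanks 1.02%). It was at 0.632% of zygonema-only centres (0.346 to 1.06, flanks 0.564%), 0.975% of distal late centres and 1.87% of all distal centres. CNCCTCAG, the element described for STRA8 and MEIOSIN at the onset of meiosis, was at 6.63% of leptonema-only centres (5.91 to 7.4, flanks 4%), 3.7% of zygonema-only centres (2.95 to 4.57, flanks 3.29%) and 5.09% of all distal centres. The E-box CAGCTG was at 13.8% of leptonema-only and 9.84% of zygonema-only centres (flanks 9.42% and 8.81%, all distal centres 10.9%), and the E-box CACGTG at 5.68% and 3.25% (flanks 3.3% and 2.73%, all distal centres 4.17%). Distal sites without H3K4me3 that were marked both early and later had the GC box at 15.6% of centres (flanks 4.61%). Of those centres 6.58% held the E-box CACGTG, 11.4% the E-box CAGCTG, 5.33% CNCCTCAG and 2.16% the CTCF core. The GC box and the E-box CACGTG contain CpG, so their order goes with the CpG content given above.

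The MYB motif AACNGNC was at 23% of member centres, near the 24% of all distal centres and below the 28.3% of distal late centres, and the ETS motif CCGGAAGT was at 0.981% of members, 1.34% of distal and 1.6% of distal late centres. Distal sites without H3K4me3 that were marked both early and later had the MYB motif at 25.4% and the ETS motif at 4.25% of centres. The cyclic AMP response element TGACGTCA was at 0.42% of members and 0.34% of distal centres. The other motifs were less frequent at member centres than in their flanks. The CCAAT box, bound by NF-Y, was at 21.8% against 24.2%, the GATA motif AGATAA at 8.5% against 10.9%, and the SOX motif ACAATG at 8.68% against 10.1%. ACANTGT (DMRT factors) was at 5.64% against 7.34%, TGANTCA (AP-1) at 4.5% against 5.42% and CAAGGTCA (NR5A1) at 0.969% against 1.36%. Over all distal centres these shares were 23%, 9.34%, 9.52%, 6.3%, 5.19% and 0.988% in the same order.

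**Figure D5:**
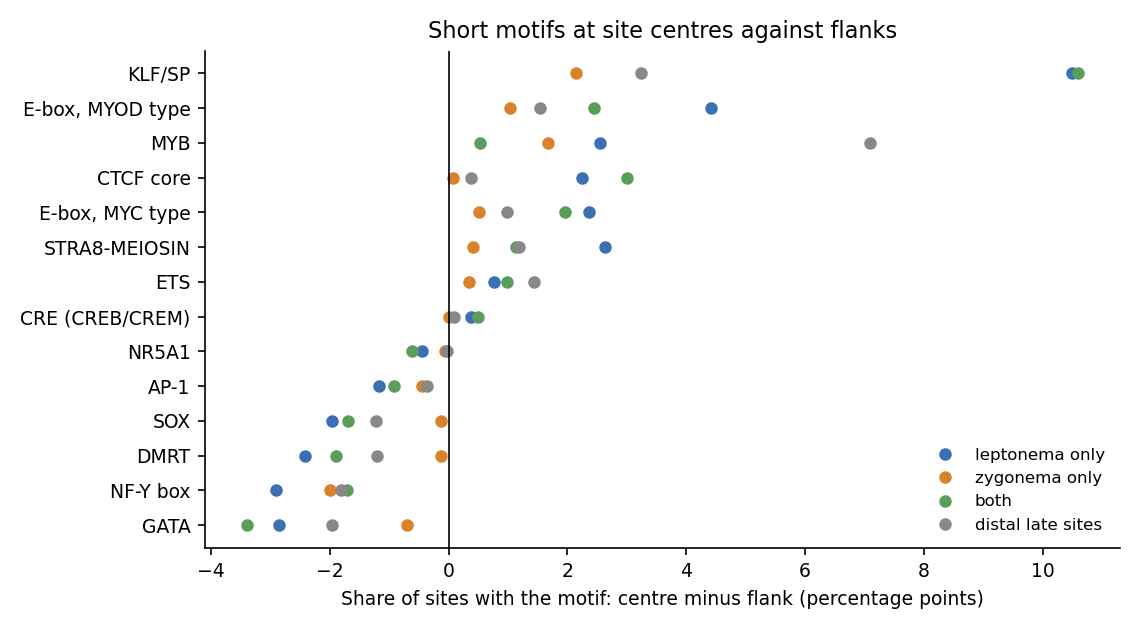
Share of sites with each of 14 motifs within 100 bp of the centre minus the mean share in flanking windows (percentage points), for the 3 stage patterns and the distal late sites; the line marks no difference. The KLF/SP box stands out at leptonema-only sites and sites in both (10.5 and 10.6 points, against 2.14 for zygonema only), and the MYB motif at distal late sites (7.09 points). Distal sites without H3K4me3 marked both early and later, not drawn, had the KLF/SP box at 11 points.

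Repeats took less of the centres than of the flanks. The soft-masked share of the reference was 14.5% at leptonema-only centres (flanks 26.2%) and 13.9% at sites in both (flanks 23.8%). It was 20.8% at zygonema-only centres (flanks 26.2%), close to the 21% at distal early sites with H3K4me3. The same direction was found over all distal sites, at 19.7% (flanks 26.2%). Distal sites without H3K4me3 that were marked both early and later had 16% (flanks 24.9%), and all members had 16% (flanks 25.7%).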

How the data were processed

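ChIP-seq peak lists were used as deposited by the authors, 20 lists from 20 of the 51 samples, holding intervals without scores. The other 31 samples have no list and were not used here. Per the labels and methods, reads were mapped to mm10 with BWA 0.7.12 and broad peaks called per library with MACS2 2.1.2, for H3K4 antibodies against the input of the substage. The labels also name deepTools 3.0.1. The control for H3K9ac is not given in the sources used here, and 1 label field of those samples names H3K4me3 where title and catalogue number name H3K9ac. Chromatin for H3K4me3 was sonicated. The lists hold no read counts, so no depth per library could be read from them, and list length (516 to 30943 peaks) is given in its place.

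Merged sites, overlaps (at least 1 bp) and distances were computed in Python 3.11.15 with numpy 2.4.6 and pandas 2.3.3 on chromosomes 1 to 19. GENCODE M21 gave 5′ ends, exons and genes, and GRCm38.p6 the sequence. Intervals are 95% exact binomial (scipy 1.17.1). The scripts were tested on simulated lists. Groups came from the labels. The members, gene lists, markers and motifs were chosen with earlier results of these data known. Sites named were the 3 widest per stage pattern, those with H3K9ac at most substages (wider first), and the 3 nearest to the 500 bp limit on each side. Genes named were the 10 nearest to most members and up to 4 per list, with chromosome 18 left out of printed sites. Tex11 and Prdm7 of the lists were not matched on these chromosomes. The alternatives changed the 5′ end window and transcripts, merging, overlap, list length, peak width and the libraries used.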

Additional observations from a re-analysis of the deposited data

How the results depend on the processing

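The number of members (8564) stayed within 1.5 times of itself under 5 of 7 other settings and when any 1 of the 10 H3K4me3 libraries was left out (8564 to 11815), and was 4430 to 9690 when an H3K4me2/3 library was left out, the lowest without leptonema. It was 1793 with the peaks of each H3K4me2/3 list above its median width and 1785 with lists cut to the shortest (17561 peaks), so most members rest on narrow peaks. Both settings remove peaks by construction. The share marked in both leptonema and zygonema (22.7%) was 23.7% with protein-coding 5′ ends only, 24.3% with peaks up to 500 bp apart merged, 17.2% with peaks above the median width and 13.8% with equal lists, and 22.7% to 27.4% when a library was left out. Without the leptonema or the zygonema H3K4me2/3 library it cannot be computed. The share with zygonema H3K9ac (6.43%) was 4.91% when at least 200 bp had to overlap, 13.6% with H3K4me2/3 peaks above the median width and 10.1% with equal H3K4me2/3 lists, 0.596% with H3K9ac peaks above the median width and 0.0117% with H3K9ac lists cut to 516 peaks. Leaving out a library gave 4.57% (no zygonema H3K4me2/3) to 19.6% (no zygonema H3K4me3 of experiment 1). Of the sequence shares, tried under 3 settings added after seeing the data, the word share of zygonema-only sites (9.39%) was 11.9% without that H3K4me3 library and 6.88% with equal lists, that of leptonema-only sites (4.04%) was 3.27% with equal lists, and the island-like share of zygonema-only sites (3.66%) was 1.84% without that library. In each of the 3 settings the word share was higher in zygonema-only than in leptonema-only sites and the island-like share lower. Sites marked in both substages were not part of this comparison. The cause of these shifts was not tested. No paired analysis was possible because each substage has 1 H3K4me2/3 and 1 H3K9ac library, from different experiments, and the results are counts over merged lists.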

Other observations

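RefSeq lists 866 experimentally described enhancers on these chromosomes after merging, and 54 members overlapped one (0.631%, 95% exact binomial interval 0.474 to 0.822), against 0.533% of all distal sites, 1.01% of distal sites without H3K4me3 that were marked both early and later, 0.203% of distal early sites with H3K4me3 and 0.29% of distal late sites. By pattern there were 30 in leptonema only, 17 in both and 7 in zygonema only. Among them, named after their values were seen, were a site marked in both substages in an intron of the transcription factor gene Atoh8 (chr6:72216415-72217548), one in leptonema only over an exon of the zinc finger gene Zfp423 (chr8:87660191-87662125), and one in zygonema only in an intron of Runx2, a bone transcription factor gene (chr17:44618808-44618974).

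The last 5 Mb of the autosomes, which make up 3.86% of their length, held 407 members (4.75%), against 4.53% of all distal sites, and 4.97% of leptonema-only, 4.42% of zygonema-only and 4.63% of the sites in both. A further 2722 sites met the rule in every respect except that they lay within 500 bp of a transcript 5′ end, and are not members.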
